A study of Mus musculus with 10 samples.

Results

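Pltp, which encodes phospholipid transfer protein, was described in mouse splenic B cells together with 7 genes of sterol transport and sterol sensing: Abca1, Abcg1, Apoe, Nr1h2, Nr1h3, Srebf1 and Srebf2. The genes were taken by symbol. Pltp was selected on measured values: it was chosen by its intensity, which was higher in both groups that carried the transgene than in wild-type, so its differences from wild-type are given as a description with no test, and the others were picked as genes of the same pathway. Of the 8 symbols, 7 had a probe set of their own, out of 19937 genes measured. Nr1h2 was not analysed here.

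RNA came from spleen cells sorted as CD22+B220+ B cells, of mice of the CBAxC57BL/6J strain, and was hybridised to Affymetrix Mouse Gene 1.0 ST arrays. The wild-type group had 3 arrays. The Sca1-Bcl6(floxed) group, called floxed, had 3 arrays and carried a transgene in which loxP sites flank mouse Bcl6, a transcriptional repressor, and eGFP, all placed in a vector of the Ly6a (Sca1) gene. The Sca1-Bcl6(delta) group, called delta, had 4 arrays and came from crosses of such mice with mb1-Cre mice, in which Cre is made in B cells and can remove the cassette. Arrays of the floxed and delta groups are called arrays with the transgene here, whether or not Cre removed the cassette. More than a single transgenic line was made, and the line, the age and the animal behind each array are not stated in the labels, so p-values measure the spread between these samples. In bulk RNA of this kind, fewer cells of a type and less RNA per cell cannot be told apart.

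Liver X receptors (LXR) are nuclear receptors that are switched on by oxysterols when a cell holds much cholesterol. They pair with retinoid X receptors and raise genes that move sterol out of the cell, among them the transporters Abca1 and Abcg1, the lipoprotein component Apoe and Pltp, whose product moves phospholipid between lipoproteins. SREBP proteins act in the opposite situation: when membrane cholesterol is low they are cut free from the endoplasmic reticulum and raise genes of cholesterol and fatty acid synthesis. In lymphocytes, both systems are known to be adjusted during activation and growth.

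Sequence just before the annotated start sites is shown for 4 of the genes, because Pltp differed between groups while Abca1, Srebf1 and Srebf2 hold known sterol-responsive elements there. Each window is the 250 bases before a start site of RefSeq, build GRCm38.p6, written 5′ to 3′ along the gene. Pltp lies at chr2:164857709-164857958 (minus strand), Abca1 at chr4:53159896-53160145 (minus strand), Srebf1 at chr11:60210472-60210721 (minus strand, the most downstream of 3 listed starts) and Srebf2 at chr15:82147019-82147268 (plus strand). Capitals mark matches to the motifs named after the sequences.
Pltp: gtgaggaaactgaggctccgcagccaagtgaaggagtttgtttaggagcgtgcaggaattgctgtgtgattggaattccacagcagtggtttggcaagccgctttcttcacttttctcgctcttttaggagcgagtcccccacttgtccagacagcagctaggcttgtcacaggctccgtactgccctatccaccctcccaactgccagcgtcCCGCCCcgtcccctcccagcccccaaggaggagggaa
Abca1: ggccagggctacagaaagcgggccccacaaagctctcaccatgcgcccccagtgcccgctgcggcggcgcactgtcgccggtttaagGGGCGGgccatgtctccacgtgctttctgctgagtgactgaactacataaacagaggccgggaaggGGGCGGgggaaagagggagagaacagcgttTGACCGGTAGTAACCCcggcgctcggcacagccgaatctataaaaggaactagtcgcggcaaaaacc
Srebf1: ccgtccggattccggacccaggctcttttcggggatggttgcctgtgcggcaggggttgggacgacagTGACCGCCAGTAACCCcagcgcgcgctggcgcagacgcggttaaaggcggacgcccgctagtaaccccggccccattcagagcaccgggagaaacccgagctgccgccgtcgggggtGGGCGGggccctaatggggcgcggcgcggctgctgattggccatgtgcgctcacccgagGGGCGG
Srebf2: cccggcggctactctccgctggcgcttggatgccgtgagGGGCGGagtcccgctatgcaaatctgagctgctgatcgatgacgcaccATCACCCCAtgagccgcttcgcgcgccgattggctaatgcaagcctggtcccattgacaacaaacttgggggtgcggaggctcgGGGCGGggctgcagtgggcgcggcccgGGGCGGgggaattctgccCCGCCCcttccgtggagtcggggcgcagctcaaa

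The motifs were searched on both strands. Abca1 held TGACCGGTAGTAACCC at 67 bases before its start and Srebf1 held TGACCGCCAGTAACCC at 182 bases before its start. Both match TGACC and TAACCC with any 5 bases between, which leaves out some of the letters that these LXR elements share. This pattern was chosen with the sequences in view. That pattern was found in 5 of 32851 windows of this length (0.0152%). The Abca1 and Srebf1 windows it was written from are counted there, so its rarity is no support for these matches. Srebf2 held the sterol regulatory element letters ATCACCCCA at 163 bases before its start, a pattern present in 0.24% of windows. In the Pltp window the only match was a GC box, GGGCGG on the opposite strand at 37 bases before the start, which 32.7% of windows hold. No match to AGGTCA repeated after any 4 bases (0.0152% of windows), to AGGTCA alone (14% of windows) or TTCNNNGAA, a pattern of the kind BCL6 and STAT proteins bind (7.02% of windows), was present in the 4 windows shown. A GC box overlapped none of the other motifs. Windows of Apoe, Nr1h2 and Nr1h3, searched too and not shown, held no match to any of these motifs. The other starts listed for Srebf1 held no match other than GC boxes. The table of start sites held no entry for Abcg1.

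The arrays differed in sex pattern as well as genotype. Xist, which coats the inactive X in female cells, had a log2 level between 12.84 and 13.04 in 6 arrays and between 5.38 and 6.20 in the other 4, and the Y-linked gene Eif2s3y lay at 3.71 to 3.99 and 9.88 to 10.39 in the same sets. The arrays of male pattern were delta 1, 1 of 4 in its group, and all 3 floxed ones, with 0 of 3 in wild-type. Sex and genotype therefore cannot be told apart in floxed against wild-type. The B cell marker list, with 11 of 12 genes measured, had a mean log2 level of 12.69 to 12.89 in all 10 arrays. Of the 11, limma called 1, in delta against wild-type, where 0.0752% of all genes passed. This gene, named after its values were seen, was Cd79a, also known as mb1, whose locus drives the Cre of the delta mice. It lay at 13.29 to 13.39 in wild-type, 13.21 to 13.35 in floxed and 12.82 to 12.89 in delta arrays, and fell by 0.48 in delta (adjusted p = 0.0427). Its adjusted p was 0.129, 0.211, 0.0659, 0.0519, 0.0677 and 0.0688 without wild-type replicates 1 or 2, floxed replicates 1 or 3 and delta replicates 1 or 3, and 0.0513 to 0.183 under 6 of the other alternatives. Bcl6 itself, measured without telling transgene from endogenous RNA, differed from wild-type by -0.17 in floxed (limma adjusted p = 0.688) and by -0.35 in delta (adjusted p = 0.578) on the log2 scale.

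Pltp encodes a secreted protein found on plasma lipoproteins. Its RMA intensity, the authors' normalized brightness of the probe set on a linear scale, was 529, 450 and 536 in wild-type 1, 2 and 3. In floxed arrays the intensity of Pltp was 1292, 1200 and 1276. In delta arrays it was 1454, 916, 859 and 1148. All 7 arrays with the transgene lay above all 3 wild-type arrays, and the floxed arrays lay closer together than the delta arrays.

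The log2 mean of Pltp was 8.98 ± 0.14 in the wild-type group (SD, n = 3), 10.29 ± 0.057 for floxed (SD, n = 3) and 10.06 ± 0.34 for delta (SD, n = 4). The estimated difference was 1.32 in floxed against wild-type (SE 0.16, 95% CI 0.96 to 1.67), or 2.49-fold. For delta it was 1.09 (SE 0.15, 95% CI 0.76 to 1.42), or 2.13-fold. These values chose the gene and carry no test. The comparisons share the wild-type arrays.

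Delta against floxed was not used to pick Pltp. The log2 difference there was -0.23 (SE 0.15, 95% CI -0.56 to 0.10, limma adjusted p = 0.847), and the groups overlapped, with delta 1 above all 3 floxed arrays and delta 2, 3 and 4 below them. The delta group holds a single array of male pattern, so sex cannot be tested within it. That array, delta 1, lay at 10.51, against 9.75 to 10.16 in delta 2, 3 and 4, of female pattern. Between arrays of female pattern, delta 2, 3 and 4 had a mean of 9.92, higher than wild-type by 0.94, and the arrays did not overlap. Between arrays of male pattern, delta 1 was 0.21 above the floxed mean. With sex pattern as a covariate, a correction that rests on delta 1 alone, the floxed estimate became 0.73, and delta against floxed turned to 0.21.

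**Figure D1:**
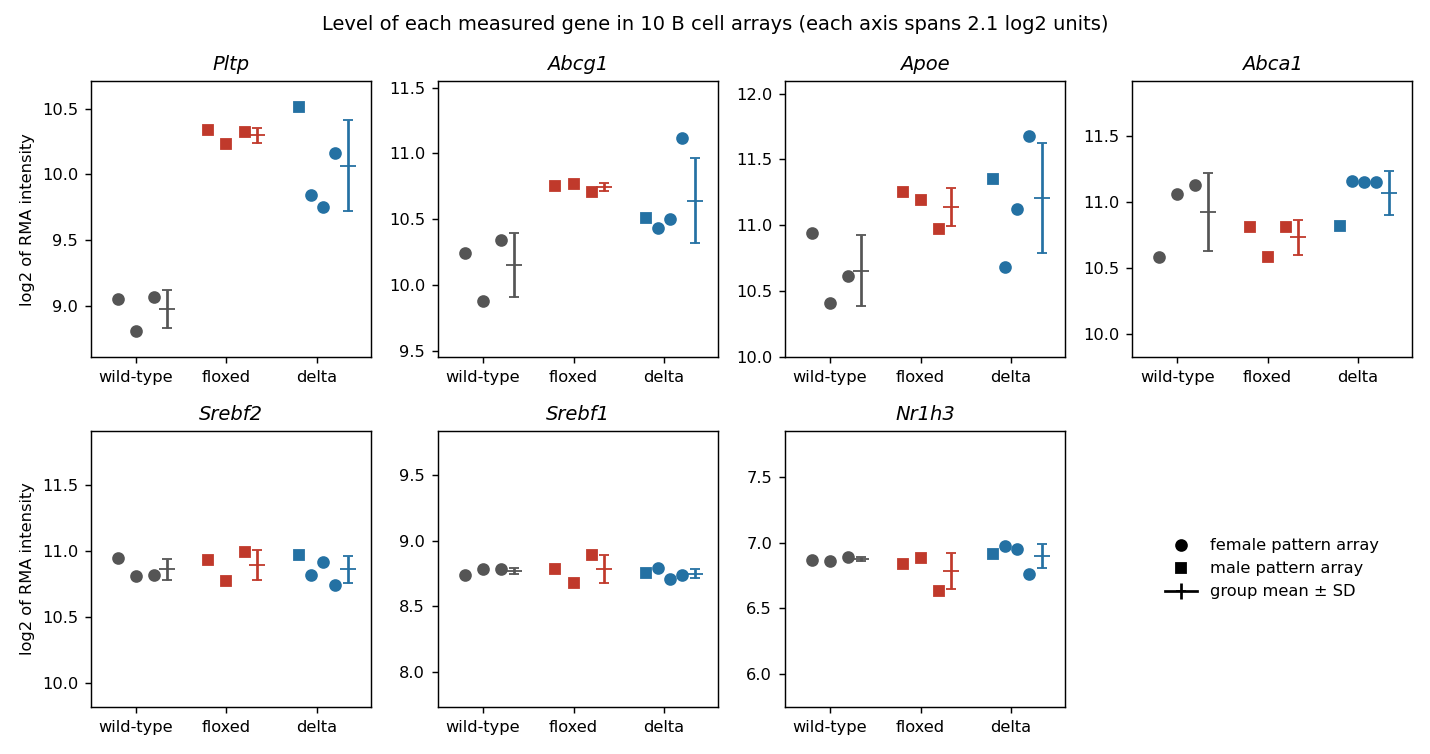
Log2 of the RMA intensity of the 7 measured genes (vertical axis) in each array, by group (horizontal axis), with circles for arrays of female pattern, squares for arrays of male pattern and bars for the group mean ± SD. Pltp lies at 8.81 to 9.07 in wild-type and 9.75 to 10.51 in all other arrays, while Srebf1 stays between 8.68 and 8.89.

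The gene next to Pltp did not share a difference of this size. Ctsa, which encodes the lysosomal protective protein cathepsin A and overlaps the end of Pltp in the RefSeq table, had a mean log2 level of 11.16 ± 0.12 for wild-type (SD, n = 3), 11.30 ± 0.045 for floxed (SD, n = 3) and 11.25 ± 0.086 for delta (SD, n = 4). Its difference from wild-type was 0.15 in floxed (limma adjusted p = 0.452) and 0.10 in delta (adjusted p = 0.811). On the other side, 4930445K14Rik differed by -0.05 and -0.17 (adjusted p = 0.853 and 0.646).

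The sterol exporter Abcg1, which loads cholesterol onto high density lipoprotein, leaned the same way without passing the test. Its intensity was 1208, 940 and 1295 in wild-type and 1722, 1752 and 1671 in floxed arrays. In delta arrays the intensity of Abcg1 was 1454, 1379, 1449 and 2228. Every array with the transgene lay above every wild-type array, and delta 4 stood apart from the other delta arrays. The log2 difference of Abcg1 was 0.59 in floxed against wild-type (SE 0.17, 95% CI 0.22 to 0.96, limma adjusted p = 0.151) and 0.49 for delta over wild-type (SE 0.16, 95% CI 0.14 to 0.83, adjusted p = 0.414). Without delta replicate 4, whose spread enters the shared variance, the floxed difference of 0.59 had an adjusted p of 0.0225. Between delta and floxed the difference was -0.10 (95% CI -0.45 to 0.24, adjusted p = 0.939).

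Apoe, the apolipoprotein that carries exported sterol, had an intensity of 1964, 1365 and 1565 in wild-type arrays. It was 2431, 2330 and 1999 in floxed arrays. In delta arrays the intensity of Apoe was 2607, 1637, 2232 and 3276, the widest spread of any group. Floxed arrays lay just above wild-type, with 1999 in the lowest floxed array beside 1964 in wild-type 1, and delta 2 lay within the wild-type range. The log2 difference was 0.48 in floxed against wild-type (SE 0.21, 95% CI 0.01 to 0.94, limma adjusted p = 0.375) and 0.55 for delta over wild-type (SE 0.20, 95% CI 0.12 to 0.98, adjusted p = 0.492). Delta against floxed gave 0.07 (95% CI -0.36 to 0.51, adjusted p = 0.971).

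Abca1, the transporter that passes cholesterol to lipid-poor apolipoproteins, took another pattern. Its intensity was 1528, 2131 and 2248 in wild-type and 1797, 1529 and 1792 in floxed arrays. In delta arrays the intensity of Abca1 was 1804, 2286, 2267 and 2272. The 4 arrays of male pattern lay at log2 levels of 10.58 to 10.82, delta 2, 3 and 4 lay at 11.15 to 11.16, and wild-type 1, of female pattern, lay at 10.58. The difference of Abca1 was -0.19 in floxed against wild-type (95% CI -0.50 to 0.12, limma adjusted p = 0.622), 0.14 for delta over wild-type (95% CI -0.15 to 0.44, adjusted p = 0.873) and 0.34 for delta over floxed (95% CI 0.04 to 0.63, adjusted p = 0.744). With sex pattern as a covariate, the value in floxed against wild-type turned to 0.14, and without wild-type replicate 1 that in delta against wild-type turned to -0.03.

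The receptor gene Nr1h3, which encodes LXR alpha, stayed within a narrow range. Its intensity was 117, 116 and 118 in wild-type, 114, 118 and 99.4 in floxed and 120, 126, 124 and 108 in delta arrays. The groups overlapped. Its log2 difference was -0.09 in floxed against wild-type (95% CI -0.26 to 0.09, limma adjusted p = 0.697) and 0.03 for delta over wild-type (95% CI -0.14 to 0.19, adjusted p = 0.966). Delta against floxed gave 0.12 (95% CI -0.05 to 0.28, adjusted p = 0.847).

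Srebf1 encodes the SREBP form that chiefly drives fatty acid synthesis. Its intensity was 427, 441 and 440 in wild-type, 439, 412 and 474 in floxed and 431, 442, 419 and 428 in delta arrays, so that every group overlapped the others. The log2 difference of Srebf1 was 0.02 in floxed (95% CI -0.12 to 0.16, limma adjusted p = 0.942) and -0.02 in delta (95% CI -0.15 to 0.11, adjusted p = 0.972), both against wild-type. Delta against floxed gave -0.04 (95% CI -0.17 to 0.10, adjusted p = 0.946).

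Srebf2 encodes the SREBP form that chiefly drives cholesterol synthesis. Its intensity was 1985, 1794 and 1806 in wild-type, 1952, 1752 and 2037 in floxed and 2004, 1814, 1943 and 1711 in delta arrays. These ranges overlapped as well. The log2 difference of Srebf2 was 0.04 in floxed (95% CI -0.14 to 0.22, limma adjusted p = 0.888) and 0.00 in delta (95% CI -0.16 to 0.17, adjusted p = 0.996) against wild-type, and -0.03 in delta against floxed (95% CI -0.20 to 0.13, adjusted p = 0.961).

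**Figure D2:**
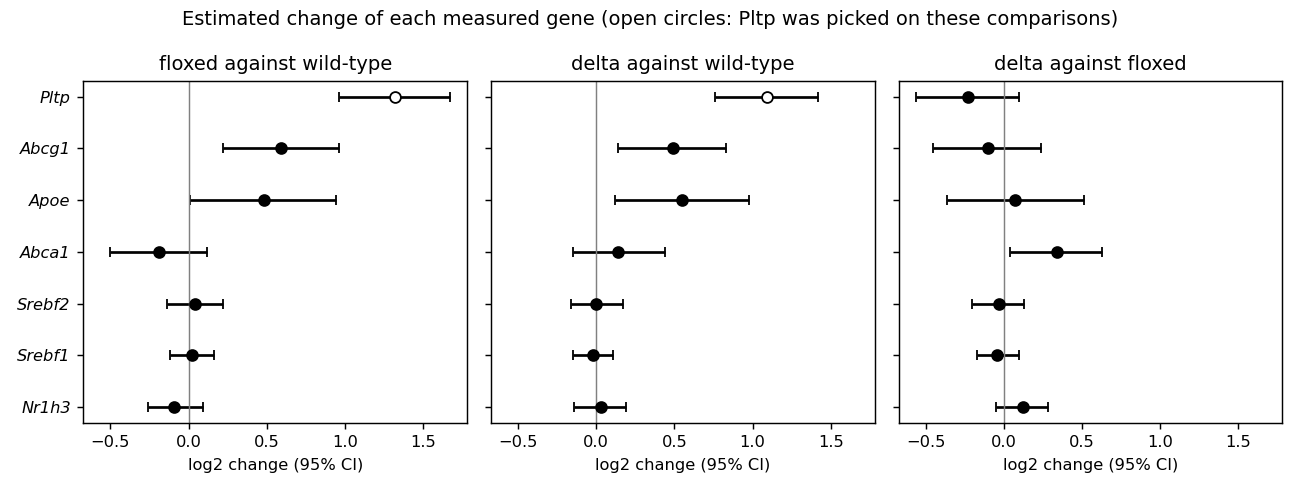
Log2 change of the 7 measured genes (horizontal axis, with 95% CI from the limma fit) in the 3 comparisons. Open circles mark Pltp in the comparisons that chose it, at 1.32 and 1.09, and the intervals of Srebf1, Srebf2 and Nr1h3 include 0 in every panel.

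Counted together, 110 of 19937 genes passed limma's adjusted p of 0.05 between floxed and wild-type (0.552%), 0.391% of all genes being called higher, and 15 did between delta and wild-type (0.0752%), with 0.0301% called higher. Pltp was among both, which supports nothing about it, since it was picked for these differences. Of the 6 other measured genes, limma called 0 in either comparison, and 2 of 6, Abcg1 and Apoe, had an unadjusted p under 0.05 in each, where 12.8% and 7.89% of all genes did. All floxed arrays lay above all wild-type arrays for Pltp, Abcg1 and Apoe, as for 7.6% of all genes. All delta arrays lay above wild-type for Pltp and Abcg1, as for 3.75% of all genes. Between delta and floxed limma called 1 of 19937 genes (0.00502%) and 0 of the 7. There, 1 of the 6 other than Pltp (Abca1) had an unadjusted p under 0.05, where 6.42% of all genes did, and its delta arrays all lay above floxed, as for 3.36% of genes. The median log2 change of the 6 was 0.03 for floxed over wild-type, 0.09 for delta over wild-type and 0.02 for delta over floxed, where that of all genes was -0.02, -0.01 and 0.00.

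Beyond these genes, 8 lists of lipid genes were counted. Of 22 listed LXR targets, 20 were measured. Apart from Pltp, limma called 0 of the other 19 in either comparison against wild-type. The list, Pltp included, had a median log2 change of 0.04 in floxed and 0.03 in delta against wild-type. Between delta and floxed 0 of the 20 passed, with Abcg8, a sterol exporter of liver and intestine, at 0.19 (adjusted p = 0.775). The other members of the lipid transfer family of Pltp (Lbp, Bpi, Bpifa1, Bpifb1 and Bpifc) did not pass in any comparison, and Bpifc was at 0.14 in delta against floxed (adjusted p = 0.847).

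Partners and cofactors of LXR stayed close to wild-type. Limma called 0 of 10 measured genes in every comparison, with list medians of -0.07 for floxed and -0.01 for delta over wild-type, and 0.03 for delta over floxed. Hdac3, a histone deacetylase of corepressor complexes, was at -0.10 in floxed (adjusted p = 0.529) and -0.13 in delta (adjusted p = 0.621), and the coactivator gene Ncoa1 was at 0.13 in floxed (adjusted p = 0.542). Ppargc1b, another coactivator gene, was at 0.14 in delta (adjusted p = 0.694). The coactivator genes Ncoa6 and Ncoa5 were both at 0.09 in delta against floxed (adjusted p = 0.844 and 0.852).

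Cholesterol synthesis genes, the main targets of the Srebf2 product, were measured for 18 of 21 symbols, and limma called 0 of 18 in each comparison. In floxed against wild-type 8 of the 18 estimates were above 0 and 10 below, with a median of -0.02, where 58.1% of all genes were below 0. For delta over wild-type 2 were above 0 and 16 below, with a median of -0.09, where 56.4% of all genes were below 0. Delta against floxed, which shares the 4 delta arrays with that comparison, had 2 above 0 and 16 below, with a median of -0.10, where 47.9% of all genes were below 0. The mean log2 level of the list overlapped between groups, at 8.27 to 8.45 in wild-type, 8.33 to 8.42 in floxed and 8.19 to 8.36 in delta arrays. Nsdhl, which removes a carbon group in the late steps from lanosterol, was at 0.17 in floxed against wild-type (limma adjusted p = 0.477) and -0.27 in delta against floxed (adjusted p = 0.702). Hsd17b7, of the same late steps, was at 0.15 and -0.19 there (adjusted p = 0.491 and 0.764). For delta over wild-type, Ggps1, which makes the lipid used in protein prenylation, was at -0.20 (adjusted p = 0.559) and the sterol demethylation gene Msmo1 at -0.26 (adjusted p = 0.621).

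Genes that sense sterol and release SREBP were measured for 7 of 11 symbols, with 0 of 7 called by limma in each comparison and medians of 0.06, -0.05 and -0.05. Mbtps1, the protease that makes the first cut in SREBP, was at -0.16 in floxed (adjusted p = 0.350) and -0.11 in delta (adjusted p = 0.738) against wild-type. Scap, the escort protein of SREBP, was at 0.10 in delta (adjusted p = 0.776), and Ubxn8 was at 0.18 in floxed (adjusted p = 0.480). Between delta and floxed, Insig2, which holds SREBP in the endoplasmic reticulum, was at -0.13 (adjusted p = 0.847) and Ubxn8 at -0.12 (adjusted p = 0.865).

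**Figure D3:**
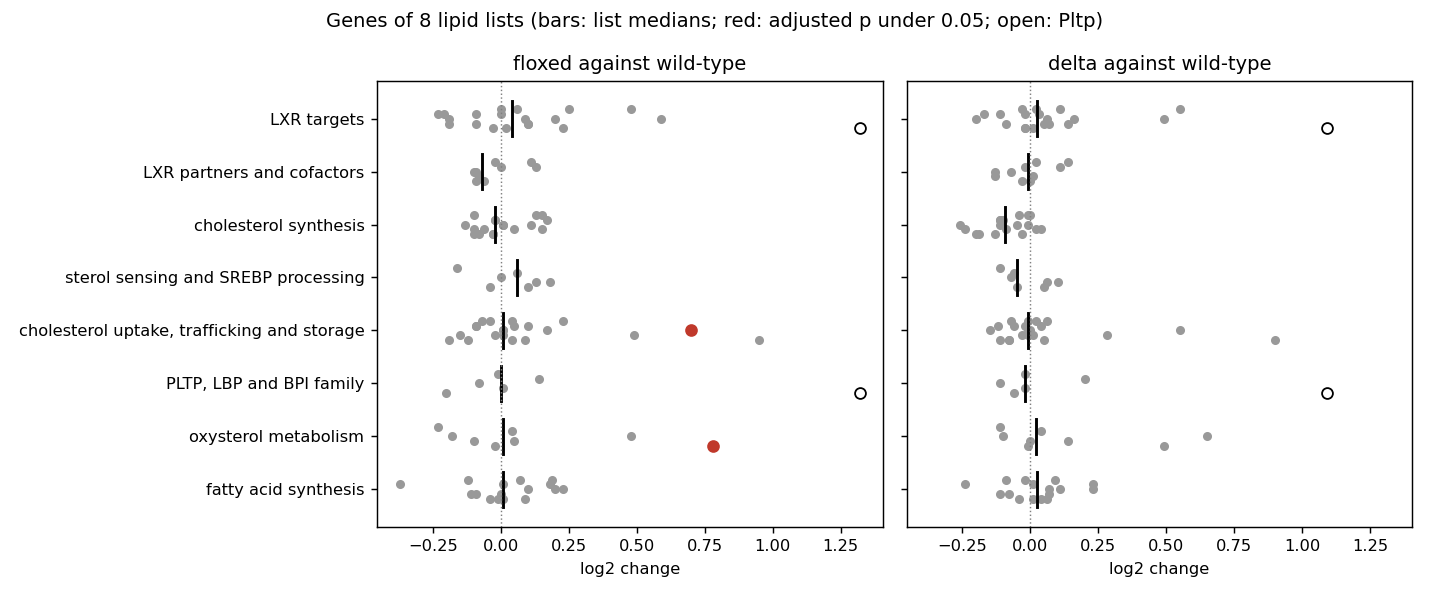
Log2 change (horizontal axis) of each measured gene of the 8 lipid lists in floxed and in delta against wild-type, with bars at list medians, red points for genes past an adjusted p of 0.05 and open circles for Pltp. The medians lie between -0.09 and 0.06, and the 2 red points, in floxed against wild-type, are Gramd1b at 0.70 and Hsd11b1 at 0.78.

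In the list of cholesterol uptake, trafficking and storage, 1 of 21 measured genes passed in floxed against wild-type, where 0.552% of all genes did. In the other comparisons 0 passed, and the medians were 0.01, -0.01 and -0.02. The gene that rose was Gramd1b, which encodes Aster-B, a protein that carries cholesterol from the plasma membrane to the endoplasmic reticulum. Its intensity was 297, 339 and 324 in wild-type, 467, 565 and 534 in floxed and 528, 409, 410 and 545 in delta arrays. All arrays with the transgene lay above all wild-type arrays, a separation that 7.6% of all genes had in floxed and 3.75% in delta. The log2 rise of Gramd1b in floxed was 0.70 (SE 0.12, 95% CI 0.43 to 0.97, limma adjusted p = 0.0348), and for delta over wild-type its difference was 0.55 (SE 0.12, adjusted p = 0.161).

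The call of Gramd1b ended when any single wild-type or floxed array was left out (log2 changes of 0.64 to 0.78; adjusted p = 0.127, 0.103 and 0.0641 for wild-type arrays 1, 2 and 3 in turn, then 0.0545, 0.117 and 0.0966 for floxed arrays 1, 2 and 3). It also ended with sex pattern (0.47, adjusted p = 0.671), the macrophage marker mean (0.63, adjusted p = 0.375) or the T cell marker mean (0.69, adjusted p = 0.207) as a covariate. For delta over wild-type the second gene by p was Abca5, a lysosomal lipid transporter gene, at 0.90 (SE 0.23, adjusted p = 0.272). Between delta and floxed, Npc2, which binds cholesterol inside lysosomes, was at -0.22 (adjusted p = 0.724), and Gramd1a, a relative of Gramd1b, was at 0.14 (adjusted p = 0.746).

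All 8 genes of oxysterol metabolism were measured, and limma called 1 higher in floxed against wild-type, where 0.391% of all genes were. That gene was Hsd11b1, whose enzyme reactivates glucocorticoids and also reduces oxysterol ketones. Its intensity was 248, 174 and 247 in wild-type, 320, 409 and 412 in floxed and 324, 277, 300 and 340 in delta arrays. Every array with the transgene lay above the wild-type range, as for 7.6% of all genes in floxed and 3.75% in delta. The rise of Hsd11b1 in floxed was 0.78 (SE 0.14, 95% CI 0.46 to 1.09, limma adjusted p = 0.0435). For delta over wild-type it was at 0.49 (adjusted p = 0.312) and in delta against floxed at -0.29 (adjusted p = 0.777). The call ended without wild-type replicates 1 or 2, floxed replicates 2 or 3 and delta replicates 1 or 3 (adjusted p = 0.0673, 0.115, 0.136, 0.115, 0.0541 and 0.0727) and with only these 2 groups in the fit (adjusted p = 0.0630). It also ended with sex pattern (0.69, adjusted p = 0.626), the macrophage marker mean (0.58, adjusted p = 0.444) or the T cell marker mean (0.89, adjusted p = 0.166) as a covariate.

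Gpr183, the oxysterol receptor EBI2 that positions B cells in lymphoid tissue, had an intensity of 2775, 2273 and 2693 in wild-type and 3183, 3766 and 3808 in floxed arrays. In delta arrays its intensity was 5610, 3265, 3361 and 4274. Wild-type arrays lay below all others, as for 7.6% of all genes in floxed and 3.75% in delta, and delta 1 was the highest array. The log2 difference of Gpr183 was 0.65 in delta (95% CI 0.29 to 1.01, limma adjusted p = 0.267) and 0.48 in floxed (95% CI 0.09 to 0.86, adjusted p = 0.285) against wild-type. Neither adjusted p was under 0.05, though both intervals excluded 0. Cyp27a1, which encodes a mitochondrial sterol hydroxylase, was at 0.24 in delta against floxed (adjusted p = 0.804). The median of the list was 0.01, 0.02 and 0.04 in the 3 comparisons.

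Fatty acid synthesis genes, targets of the Srebf1 product, were measured for all 16 symbols, with 0 of 16 called by limma in each comparison and medians of 0.01, 0.02 and 0.00. Elovl6, which elongates saturated fatty acids, had an intensity of 197, 175 and 218 in wild-type, 159, 146 and 150 in floxed and 157, 185, 160 and 166 in delta arrays. Its log2 difference was -0.37 in floxed (95% CI -0.57 to -0.17, adjusted p = 0.0983) and -0.24 in delta (adjusted p = 0.492) against wild-type, and 0.14 in delta against floxed (adjusted p = 0.847). Elovl5, an elongase of polyunsaturated fatty acids, was at 0.23 in both comparisons with wild-type (adjusted p = 0.366 and 0.577). Acacb, an acetyl-CoA carboxylase gene, was at -0.10 in delta against floxed (adjusted p = 0.899).

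**Figure D4:**
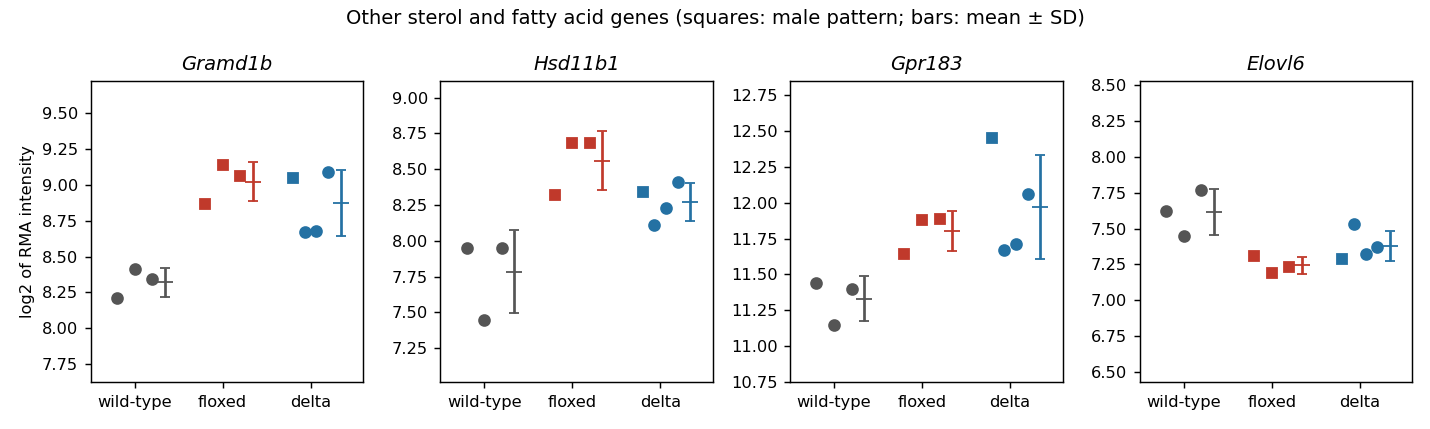
Log2 of the RMA intensity (vertical axis) of Gramd1b, Hsd11b1, Gpr183 and Elovl6 in each array by group, with squares for arrays of male pattern and bars for the group mean ± SD. The first 3 genes lie higher in every array with the transgene than in wild-type, as 7.6% of all genes do in floxed and 3.75% in delta. Elovl6 lies at 7.45 to 7.77 in wild-type and 7.19 to 7.31 in floxed.

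Macrophages make much Apoe, Abcg1 and Pltp, so markers of that cell type were set beside these genes. All 20 listed macrophage and monocyte genes were measured. Their summed intensity was 2740 to 3202 in wild-type, 3495 to 3744 in floxed and 3065 to 4161 in delta arrays, and limma called 0 of 20 in each comparison. The members moved apart: Adgre1, the F4/80 antigen, lay at log2 levels of 7.09 to 7.81 in wild-type, 9.11 to 9.83 in floxed and 8.06 to 10.15 in delta arrays, while the defining genes Csf1r and C1qa lay at 6.81 to 6.99 and 6.83 to 6.88 in wild-type, 6.58 to 6.90 and 6.74 to 6.80 in floxed and 6.42 to 6.86 and 6.67 to 6.91 in delta. In all 10 arrays Csf1r and C1qa lay below 7.20, the median over all genes, where array background was not told apart from signal. Itgam, the integrin CD11b, was at 8.58 in delta 4 and 6.61 to 6.91 in the other delta arrays, also below that median.

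Across the 10 arrays, the mean of the macrophage list had a Pearson correlation of 0.908 with Abcg1, 0.64 with Apoe and 0.61 with Pltp. In the same order, the dendritic cell list had 0.758, 0.689 and 0.712 and the NK cell list 0.637, 0.347 and 0.562. The B cell list had -0.509, -0.52 and -0.439. The arrays share their groups, so these are descriptions. With the macrophage mean as a covariate, Pltp was at 1.23 in floxed and 1.05 in delta against wild-type. Abcg1 was at 0.18 and 0.28 (limma adjusted p = 0.762 and 0.584) and Apoe at 0.17 and 0.39 (adjusted p = 0.913 and 0.803). Without the covariate these values were 1.32 and 1.09 for Pltp, 0.59 and 0.49 for Abcg1 and 0.48 and 0.55 for Apoe. The differences of Pltp from wild-type chose the gene, so they carry no test with or without this covariate. The part of macrophages in these differences was not tested.

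**Figure D5:**
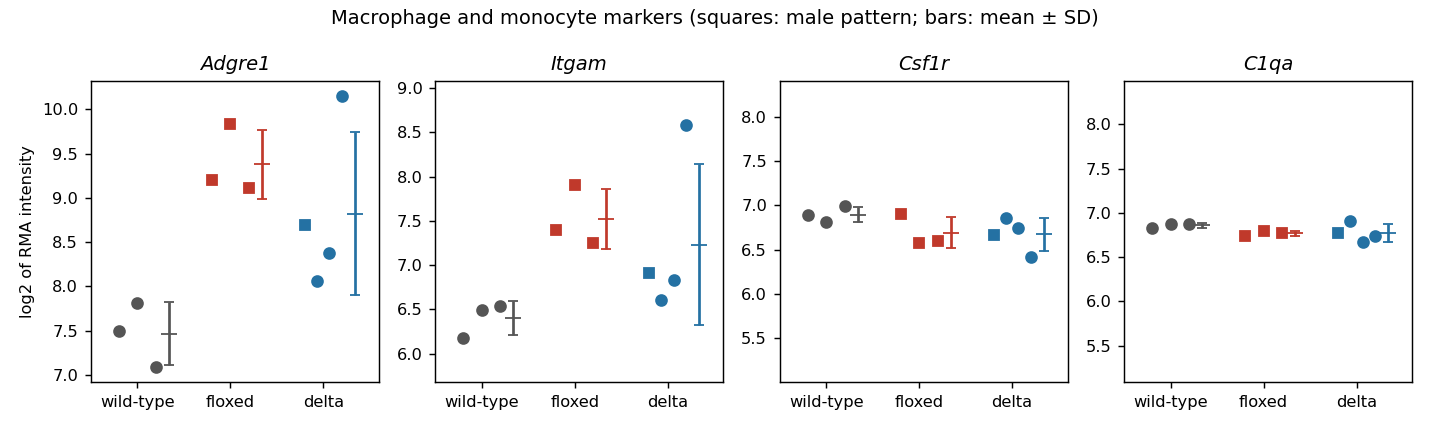
Log2 of the RMA intensity (vertical axis) of 4 macrophage and monocyte markers in each array by group, with squares for arrays of male pattern and bars for the group mean ± SD. Adgre1 and Itgam lie above wild-type in every array with the transgene, as 7.6% of all genes do in floxed and 3.75% in delta. They lie furthest above it in the floxed arrays and in delta 4. C1qa stays between 6.67 and 6.91 in all 10 arrays, below the median over all genes of 7.20.

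The endothelial and stromal list had summed intensities of 3582 to 4034 in wild-type, 3592 to 3886 in floxed and 3681 to 3825 in delta arrays, with 0 of 12 genes called by limma. The T cell list had 11 of 12 genes measured and sums of 1145 to 1374, 1279 to 2150 and 1150 to 1667. The dendritic cell list had all 8 genes measured and sums of 706 to 795, 1067 to 1465 and 785 to 1359, and the granulocyte list 683 to 711, 648 to 1045 and 695 to 822. Of the dendritic cell genes, Itgax had mean log2 levels of 6.67, 8.59 and 7.77 in wild-type, floxed and delta. Flt3 had 6.76, 7.77 and 7.24, Xcr1 6.02, 5.93 and 6.01, and Clec9a 5.32, 5.28 and 5.27. NK cell genes summed to 560 to 660, 928 to 999 and 601 to 1015, erythroid genes (7 of 10 measured) to 1625 to 2611, 2653 to 3550 and 1260 to 2531, and platelet genes (5 of 6 measured) to 794 to 895, 795 to 890 and 798 to 936. The NK cell genes did not move together. Prf1 had mean log2 levels of 7.72, 8.53 and 8.02 in wild-type, floxed and delta, and Il2rb 6.49, 7.88 and 7.18. Gzma had 5.77, 5.76 and 5.50, and Klrd1 5.90, 5.97 and 5.54. The part of these cells in the level of Pltp was not tested.

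Genes whose log2 level was most like that of Pltp across the 10 arrays were ranked by Pearson correlation, over genes with an established name. The closest was Casp4, a caspase gene of the inflammasome response to lipopolysaccharide (r = 0.954), followed by Nt5dc3 (0.948), the homeodomain factor gene Pbx3 (0.947), Snd1 (0.946), Nbeal2 (0.945), the peptidoglycan sensor gene Nod1 (0.945), the magnesium transporter gene Slc41a2 (0.945) and Setbp1 (0.942). Casp4 had log2 levels of 8.39 to 8.80 in wild-type, 9.29 to 9.46 in floxed and 9.09 to 9.32 in delta arrays. Most unlike were Csrp2, a LIM domain protein gene (-0.945), Ehd2 (-0.939), Gatad1 (-0.934) and Plekhf2 (-0.933). Much of this likeness is the step between wild-type and the other groups. After each group mean was taken away, the correlation with Pltp was 0.657 for Casp4. Among the genes named as most like Pltp, this correlation ran from 0.476 for Nt5dc3 to 0.861 for Setbp1. Among those named as most unlike, it ran from -0.447 for Ehd2 to -0.918 for Gatad1.

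Of the other measured genes of the set, Abcg1 had a correlation of 0.796 with Pltp over the 10 arrays and Apoe 0.746. Srebf2, Srebf1, Abca1 and Nr1h3 had 0.214, 0.0438, -0.221 and -0.262. After the group means were taken away, these values were 0.348 for Abcg1, 0.575 for Apoe and -0.459 for Abca1. Arrays of a group share their genotype and, in wild-type and floxed, their sex pattern.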

How the data were processed

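Gene expression was measured on 10 arrays. Per the submitters' processing notes, the authors deposited RMA values, an intensity for each probe set, which run from 4.46 to 26808 on a linear scale. RMA corrects background, normalizes between arrays and summarises probes. The RMA version is not given in the sources used here, nor is the annotation build. Array medians lay between 139 and 145. The number of arrays limits the precision.

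Log2 of each value was taken. Of 34760 probe sets, 21640 had exactly 1 symbol in the platform annotation, 1321 had several and 11799 none. For 954 genes with several probe sets the one with the highest mean was used, which left 19937 genes.

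Differences came from limma 3.58.1 in R 4.3.3 (lmFit with 3 group means over all 10 arrays, eBayes, two-sided, Benjamini-Hochberg over all genes, threshold 0.05), tested on simulated data. The prior had 4.32 degrees of freedom, 11.3 in total. An array had a male pattern when the mean of Eif2s3y, Kdm5d and Uty lay above Xist.

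The genes and lists were chosen with earlier results of these data known. Besides the 8 genes, the rule names from each list up to 4 members past the threshold, or up to 2 with the smallest p as values, the 8 genes most like and 4 most unlike Pltp, the neighbours of Pltp, sex genes and markers. Nceh1, Cd79a, and Gpr183 and Abca5 in floxed against wild-type, are named outside it, after their values were seen. Alternatives covered normalization, dim genes (lowest 30% left out), gene unit, prior, array weights, groups in the fit, replicate block, sex pattern, marker means and each array left out. A fit on arrays of female pattern only was added after seeing the data.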

Additional observations from a re-analysis of the deposited data

Results flagged for a closer look

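In groups of 4 arrays, an array was picked out when its gap to the nearest other array, over the whole range of the group, exceeded Dixon's critical value at the 95% level. Chance picks about 1 in 20 groups, and the delta group was tested for 57 genes, of which 9 were picked out. Abca1 had a log2 level of 10.82 in delta 1, of male pattern, against 11.15 to 11.16 in the other delta arrays. Insig2 lay at 9.09 in delta 1 against 9.38 to 9.42. Abcg1 lay at 11.12 in delta 4 against 10.43 to 10.51, and the integrin genes Itgam and Itgax lay at 8.58 and 9.39 in that array against 6.61 to 6.91 and 7.06 to 7.36. The sex genes Xist, Eif2s3y, Kdm5d and Uty lay at 6.20, 10.28, 9.32 and 9.71 in delta 1, against 12.84 to 13.04, 3.71 to 3.88, 5.39 to 5.62 and 4.64 to 4.84 in the other delta arrays.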

How the results depend on the processing

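Pltp was picked for its difference from wild-type, so a kept direction in refits of the same arrays is a description and no support. That difference stayed above 0 under all alternatives run. With each array left out in turn it was 1.24 to 1.36 in floxed and 0.94 to 1.19 in delta. With sex pattern as a covariate it moved to 0.73 in floxed. In delta against floxed it was -0.38 to -0.12 with arrays left out and turned to 0.21 with that covariate. The count of the 7 genes past the threshold includes Pltp, which was selected on its difference from wild-type, so these counts support nothing about it. In floxed against wild-type it was 1 to 2 with arrays left out, 2 with the replicate block, and 0 with sex pattern, the macrophage mean or the T cell mean as a covariate. In delta against wild-type it was 0 to 1 with arrays left out, and 0 with every probe set kept, the trend and robust prior, the replicate block, the macrophage mean, only the groups compared, or arrays of female pattern only. In delta against floxed it was 0 whichever array was left out.

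The count over all genes in floxed against wild-type (110) was 166 with dim genes left out, 208 with array weights, 188 with the replicate block, 193 with only the groups compared, 2 with sex pattern, 2 with the macrophage mean and 9 with the T cell mean, and 18 (without wild-type replicate 2) to 240 (without delta replicate 4) with arrays left out. In delta against wild-type (15) it was 9 with the trend and robust prior, 6 with the replicate block, 3 with sex pattern, 1 in arrays of female pattern, and 0 with every probe set, the macrophage mean or only the groups compared, and 0 to 23 with arrays left out. In delta against floxed (1) it was 3 with the trend and robust prior, 2 with the replicate block, 2 with only the groups compared, and 1 to 10 with arrays left out. The causes were not tested. Replicate numbers did not pair the arrays (correlations of deviations from -0.0828 to 0.121), and under the block Abcg1 passed in floxed against wild-type (0.59, limma adjusted p = 0.0347) while Cd79a did not pass in delta against wild-type (adjusted p = 0.116). Calls of Gramd1b and Hsd11b1 held under it.

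Of 384 values of the other 6 genes under alternatives, 361 kept direction and call, 2 gained a call (Abcg1) and 21 changed sign, all of them from differences past no threshold. In floxed against wild-type these were Srebf1 and Srebf2 at -0.02 and -0.03 with array weights, Abca1 at 0.14 and Srebf2 at -0.10 with sex pattern, Nr1h3 at 0.01 and Srebf1 at -0.04 with the T cell mean, and, without floxed replicate 3, Srebf1 at -0.04 (range with arrays left out to 0.07) and Srebf2 at -0.01 (to 0.10). In delta against wild-type it was Abca1 at -0.03 without wild-type replicate 1 (to 0.25 without wild-type replicate 3). In delta against floxed they were Srebf2 at 0.02 with array weights, 0.01 with the replicate block and 0.07 with sex pattern, Apoe at -0.08 with the replicate block, Abcg1 at 0.10 with the macrophage mean and 0.05 with the T cell mean, and Srebf1 at 0.02 with the T cell mean. Without floxed replicate 3, Apoe was at -0.01, Srebf1 at 0.02 and Srebf2 at 0.01, and without delta replicate 4 Apoe was at -0.08 and Srebf2 at 0.01. With arrays left out these ranged from -0.08 to 0.25 for Apoe, -0.09 to 0.02 for Srebf1 and -0.10 to 0.01 for Srebf2.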

Other observations

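Nceh1, which encodes a neutral cholesterol ester hydrolase, and Abca5 were looked at after their values were seen. Nceh1 had log2 levels of 9.03 to 9.53 in wild-type, 9.63 to 9.81 in floxed and 9.41 to 9.57 in delta arrays. The floxed arrays exceeded wild-type by 0.49 (SE 0.12, limma adjusted p = 0.0960), and delta differed from floxed by -0.21 (adjusted p = 0.806). Abca5 had levels of 7.26 to 8.35, 8.52 to 8.77 and 8.21 to 8.99, with floxed exceeding wild-type by 0.95 (SE 0.25, limma adjusted p = 0.121).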
